A study of Mus musculus with 8 samples.

Results

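The genes examined here encode the proteins of the cornified envelope, most of them clustered in the epidermal differentiation complex on mouse chromosome 3. They were chosen by name, as every Sprr or Lce gene of the expression table together with 17 listed symbols from Lor to Tgm3. The rule matched 53 of the 24421 genes of the table: 16 Sprr genes, 21 Lce genes and 16 of the 17 listed symbols. Flg was not analysed here. Of the 53 genes, 44 had at least 1 read in any library and 9 had none, and 37 passed the filter on low values (a group mean of at least 1 normalized read), so 16 were not tested.

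The libraries came from back skin of 4 C57BL/6J mice that all carried ROSA<mTmG> and the tamoxifen-inducible Cre transgene Tyr:Cre<ERT2>, which the tyrosinase promoter drives in melanocytes. In such mice recombined cells switch from the red membrane protein tdTomato to EGFP. All 4 mice received tamoxifen each day for 10 days from postnatal day 21 and were shaved and depilated at day 50. Mice 3 and 4 were then given UVB at 150 mJ/cm2 for 3 days, mice 1 and 2 had normal light only, and skin was taken at day 54. EGFP+ cells (melanocytes, per the labels) and tdTomato+ cells (all other skin cells) were sorted from each mouse, which gave 4 groups of 2 libraries: no UV EGFP, UV EGFP, no UV tdTomato and UV tdTomato. Tamoxifen and depilation were thus common to all groups, and cells in which the Cre did not act stay in the red fraction. Each group holds 2 mice, so p-values rest on very few animals.

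The cornified envelope is the protein shell that replaces the plasma membrane of keratinocytes as they die at the skin surface. Transglutaminases cross-link scaffold proteins such as involucrin and loricrin, small proline-rich (SPRR) and late cornified envelope (LCE) proteins into it, while filaggrin-type proteins carrying an S100 domain pack the keratin beneath. Several SPRR and LCE genes are known as genes of injured or inflamed epidermis, and others belong to normal late differentiation.

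The libraries held 11186363 to 16711981 reads assigned to genes. The 6 melanocyte markers summed to between 515760 and 603174 normalized reads in the EGFP libraries and to between 2321 and 5380 in the no UV tdTomato libraries. In the UV tdTomato libraries the same markers summed to between 22716 and 43831, and 4 of the 6 were called higher there. The basal keratinocyte markers (6 genes, among them Krt5 and Krt14) summed to 208278 to 271496 without UV and 205246 to 215722 after it. The suprabasal keratins Krt1, Krt10 and Krt2 summed to 18241 to 28994 without UV and 367 to 728 after it, with Krt2 at 0 after UV. Fibroblast markers (6 genes) summed to 14716 to 17429 and 8276 to 11772, and sebocyte markers (4 genes) to 3024 to 9667 and 793 to 1567. The part of these shifts in the results below was not tested, and in bulk libraries fewer cells of a type and less RNA per cell cannot be told apart. The tdTomato library of mouse 3 stood apart from that of mouse 4 for several genes: Krt6b, a keratin of injured and hyperproliferative epidermis, had 3355 normalized reads against 67.7, and Klk6, a kallikrein protease, 1280 against 48.2.

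Sequence similarity limits which copies of these families can be told apart, and the starts of 5 Sprr2 coding sequences show how far (GRCm38 bases under the GENCODE vM21 annotation, the first 90 coding bases). Capitals mark the bases that differ from Sprr2a1.
Sprr2a1: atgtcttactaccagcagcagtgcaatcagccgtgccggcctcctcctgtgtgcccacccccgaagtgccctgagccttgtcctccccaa
Sprr2a2: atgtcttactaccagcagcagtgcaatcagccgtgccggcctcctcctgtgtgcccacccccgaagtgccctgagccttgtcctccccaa
Sprr2a3: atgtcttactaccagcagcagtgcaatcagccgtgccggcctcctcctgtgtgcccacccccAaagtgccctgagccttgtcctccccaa
Sprr2d: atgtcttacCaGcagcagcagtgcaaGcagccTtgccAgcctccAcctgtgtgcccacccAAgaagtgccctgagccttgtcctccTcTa
Sprr2h: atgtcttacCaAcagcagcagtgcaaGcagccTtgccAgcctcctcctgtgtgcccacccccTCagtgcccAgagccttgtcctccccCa
Over these bases Sprr2a2 had 0 differences from Sprr2a1, Sprr2a3 had 1, Sprr2d had 10 and Sprr2h had 9. Across whole transcripts, 3.72% of the 50-base windows of Sprr2a1 and 3.53% of those of Sprr2a2 occurred in no other gene, against 38.9% for Sprr2a3, 95.7% for Sprr2d and 100% for Sprr2h. Those first 3 were the only genes of the 53 under 50%. Sprr2a1 and Sprr2a2 had 0 reads in every library, so the reads listed for Sprr2a3 are uncertain as to which copy they came from. In the LCE3 group the share of unique windows was 64.3% for Lce3c and 50.7% for Lce3d, and 22 of the 53 genes had 100%.

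**Figure D1:**
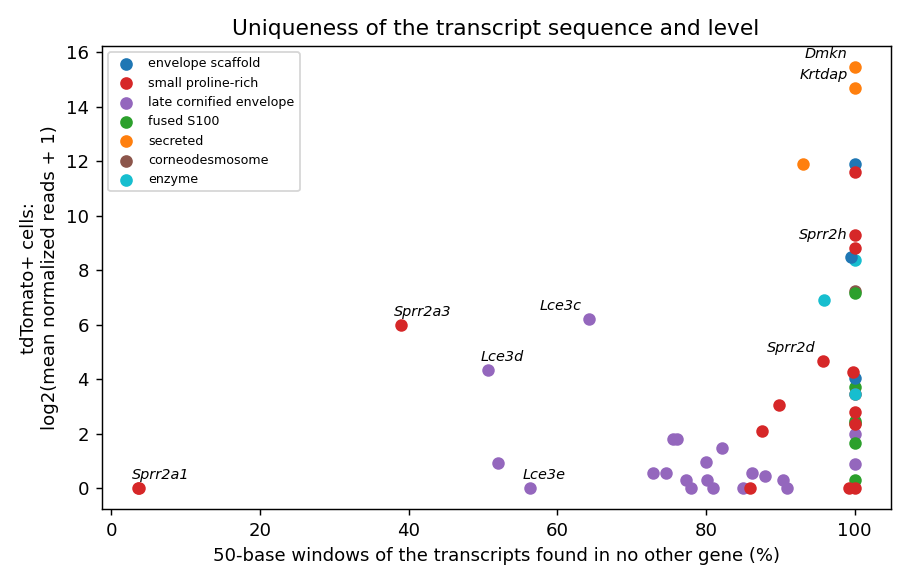
Each point is 1 of the 53 genes, placed by the percent of its 50-base transcript windows found in no other gene (x axis) and by its mean level in the 4 tdTomato+ libraries on the log2(normalized reads + 1) scale (y axis), and coloured by role. The 3 Sprr2a copies lie to the left, from 3.53% to 38.9%, while Sprr2h, Krtdap and Dmkn sit at 100%.

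The upstream sequence is shown for 6 genes described below, picked after their values were seen and not as the 6 that differed most, as the 200 bases before the RefSeq transcript start in GRCm38.p6. Capitals mark matches to the AP-1 motif TGANTCA, which reads the same on both strands, and to the TATA box TATAAA, searched on both strands. The windows are chr3:92438780-92438979 (minus strand) for Sprr1b, chr3:92385485-92385684 (plus) for Sprr2h, chr3:92338940-92339139 (plus) for Sprr2d, chr3:93144589-93144788 (plus) for Crnn, chr14:103513141-103513340 (plus) for Scel and chr3:92944286-92944485 (plus) for Lce3c.
Sprr1b: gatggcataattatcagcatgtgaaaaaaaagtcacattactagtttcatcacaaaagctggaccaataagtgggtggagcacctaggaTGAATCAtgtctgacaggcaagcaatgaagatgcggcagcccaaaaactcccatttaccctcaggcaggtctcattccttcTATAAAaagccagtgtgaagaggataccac
Sprr2h: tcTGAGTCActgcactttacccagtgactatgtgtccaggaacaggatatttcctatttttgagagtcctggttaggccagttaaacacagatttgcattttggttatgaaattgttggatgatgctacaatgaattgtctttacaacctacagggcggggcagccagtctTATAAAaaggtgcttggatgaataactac
Sprr2d: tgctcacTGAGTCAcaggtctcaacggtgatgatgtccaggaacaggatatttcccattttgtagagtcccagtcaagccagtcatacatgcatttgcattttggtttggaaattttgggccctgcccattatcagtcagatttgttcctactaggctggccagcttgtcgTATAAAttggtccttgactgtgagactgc
Crnn: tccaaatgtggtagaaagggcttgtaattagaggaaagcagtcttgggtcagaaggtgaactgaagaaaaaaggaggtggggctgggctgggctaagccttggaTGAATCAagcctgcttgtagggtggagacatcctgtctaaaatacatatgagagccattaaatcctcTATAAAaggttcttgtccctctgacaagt
Scel: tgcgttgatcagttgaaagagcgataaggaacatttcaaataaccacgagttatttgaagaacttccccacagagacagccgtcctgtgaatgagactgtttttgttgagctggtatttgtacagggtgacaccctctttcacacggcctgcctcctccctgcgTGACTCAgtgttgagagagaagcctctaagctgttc
Lce3c: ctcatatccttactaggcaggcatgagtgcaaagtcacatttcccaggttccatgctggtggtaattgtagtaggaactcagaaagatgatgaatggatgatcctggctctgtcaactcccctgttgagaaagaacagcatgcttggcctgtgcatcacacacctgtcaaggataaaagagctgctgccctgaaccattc
Sprr1b, Sprr2h, Sprr2d, Crnn and Scel each held 1 AP-1 match in the stretch shown, and each of these but Scel a TATA box match. The stretch of Lce3c held neither, and those of Lce3d, Tchh, Tgm3 and Hrnr, not shown, held 0 AP-1 matches. RefSeq promoter windows of 300 bases (250 before and 50 after the start) were found for 50 of the 53 genes, 54 windows in all. AP-1 letters occurred in 21 of these 54 windows (38.9%) and in 7.81% of all 32851 windows. By gene, 9 of 14 Sprr genes held the match, 0 of 20 Lce genes and 10 of the other 16. TATAAA occurred in 38.9% against 13.6% of all windows, the KLF letters CACCC in 55.6% against 57.5%, and the GRHL letters ACCGGT in 0 of 54 against 2.33%. These are letter matches and not binding sites.

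Most of the signal of these genes in the tdTomato+ cells came from the secreted proteins of the upper epidermis. Krtdap, Sbsn and Dmkn encode keratinocyte differentiation-associated protein, suprabasin and dermokine, and the 3 genes lie close together on chromosome 7 (Krtdap at chr7:30787896-30791097, Dmkn at chr7:30763756-30781063, Sbsn at chr7:30751471-30756134). Together they made up 86.9% to 93.5% of all reads of the 53 genes in each tdTomato library. All 53 genes together took 0.442% to 0.626% of the reads of a tdTomato library and 0.00146% to 0.0026% of the reads of an EGFP library.

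Coordinates are those of mm10 (GRCm38). Levels are given as normalized reads (read counts divided by a size factor per library), in the order mouse 1, mouse 2, mouse 3, mouse 4. Dmkn had 40156 and 45811 normalized reads without UV and 50878 and 43911 after UV in the tdTomato libraries, and 52.4, 92.2, 125 and 113 in the EGFP libraries. Libraries with and without UV overlapped in tdTomato+ cells, with a log2 difference of 0.14 ± 0.27 (SE; limma, adjusted p = 0.864). Krtdap had 28051 and 31598 without UV and 29533 and 16988 after it, and 172, 64.7, 25.2 and 37.7 in the EGFP libraries. Mouse 4 was the low sample in tdTomato+ cells, and the change of -0.41 ± 0.46 was not called (limma, adjusted p = 0.740). Sbsn had 3355, 4276, 5096 and 2503 in the tdTomato libraries and 47.4, 25.7, 62.1 and 35.6 in the EGFP libraries. Its UV libraries lay on both sides of the no UV libraries (-0.08 ± 0.47). Per kilobase of exon, the level in no UV tdTomato+ cells was 43924 for Krtdap, 19609 for Dmkn and 1053 for Sbsn.

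**Figure D2:**
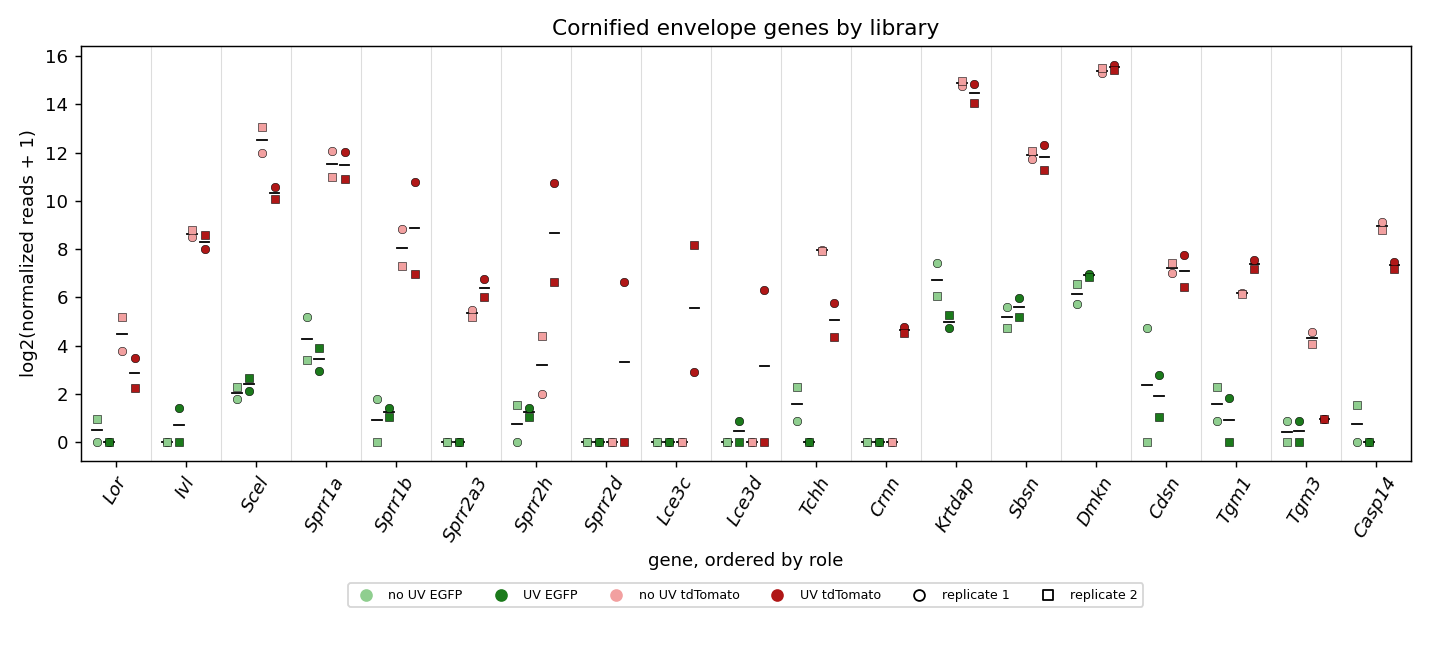
Level of 19 genes in each of the 8 libraries on the log2(normalized reads + 1) scale, ordered by role; colour gives the group, circles and squares are replicate 1 (mice 1 and 3) and replicate 2 (mice 2 and 4), and bars are the group means. The EGFP points lie near 0 for most genes, and the UV tdTomato points of Sprr1b, Sprr2h, Sprr2d, Lce3c and Lce3d lie far apart between mice 3 and 4.

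Among the envelope scaffold genes, Scel, which encodes sciellin, a precursor of the envelope, was the most abundant. Scel (chr14:103513342-103612797) had 4082 and 8462 normalized reads in no UV tdTomato+ cells and 1519 and 1084 after UV. Both UV mice lay below both no UV mice, and summed reads were 4.5 times as many without UV (counting interval 4.32 to 4.69), but the log2 difference of -2.19 ± 0.57 was not called (limma, adjusted p = 0.157). On the recovered reads Scel was called lower by both edgeR's quasi-likelihood test (adjusted p = 0.00133) and DESeq2 (adjusted p = 7.73e-06). Over all alternatives its adjusted p ran up to 0.446. Ivl (involucrin, chr3:92570902-92573735) had 358, 437, 257 and 386 normalized reads in the tdTomato libraries. The UV and no UV libraries of Ivl overlapped, with a difference of -0.33 ± 0.97 (limma, adjusted p = 0.924). Lor (loricrin, chr3:92080271-92083142), the main protein of the mature envelope, had only 12.7, 35.7, 10.1 and 3.71. Both UV libraries were below the no UV ones, and the difference of -1.63 ± 1.00 was not called (limma, adjusted p = 0.544). Per kilobase of exon in no UV tdTomato+ cells Lor stood at 13.6, against 207 for Ivl and 2506 for Scel.

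The 2 Sprr1 genes were expressed at high level, with 1 mouse setting the spread after UV. Sprr1a (chr3:92483952-92485895) had 4307 and 2052 normalized reads in no UV and 4137 and 1932 in UV tdTomato+ cells. Each condition thus held a high and a low mouse, and the difference was -0.07 ± 0.71 (limma, adjusted p = 0.992). Sprr1b (chr3:92436809-92438789) had 457, 154, 1763 and 124. Mouse 3 was the high sample and mouse 4 the lowest of the 4, and the difference was 0.82 ± 1.38 (limma, adjusted p = 0.840).

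Sprr2h had the largest UV difference among the SPRR genes, and its size depended on the mouse. Sprr2h (chr3:92385685-92387324) had 2.93 and 19.98 normalized reads without UV and 1692 and 97.4 after it. Both UV mice lay above both no UV mice, mouse 3 far above mouse 4. Summed reads were 91.2 times as many after UV (counting interval 56.8 to 157), and the log2 difference of 5.49 ± 1.57 was not called by limma (adjusted p = 0.186). The edgeR quasi-likelihood test (adjusted p = 0.0141) and DESeq2 (adjusted p = 1.13e-05) called Sprr2h higher. Without the tdTomato library of mouse 3 the difference was 3.44 (limma, adjusted p = 0.566), and over all alternatives the adjusted p ran up to that value. In the same library Krt6b and Klk6 were high, and the part of whatever set that library apart was not tested.

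The other SPRR2 genes were lower or absent. Sprr2a3 had 44.0, 35.7, 107 and 63.1 normalized reads in the tdTomato libraries, so both UV mice lay above both no UV mice, but the difference was 1.03 ± 0.99 (limma, adjusted p = 0.686). Sprr2d, named after its values were seen, had 0 in the no UV libraries and in mouse 4 and 97.1 in mouse 3. That single library held all 106 Sprr2d reads. Sprr2j-ps, a pseudogene by its symbol and protein-coding in GENCODE vM21, had 5.87, 58.5, 0 and 9.27, and Sprr2g 0, 14.3, 19.2 and 6.49. The groups overlapped for both. Summed over the 12 Sprr2 genes the tdTomato libraries had 65.5 and 144 without UV and 1954 and 176 after it, so that only mouse 3 stood well above the rest. Sprr3 and Sprr4 had at most 9.16 normalized reads in any library.

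**Figure D3:**
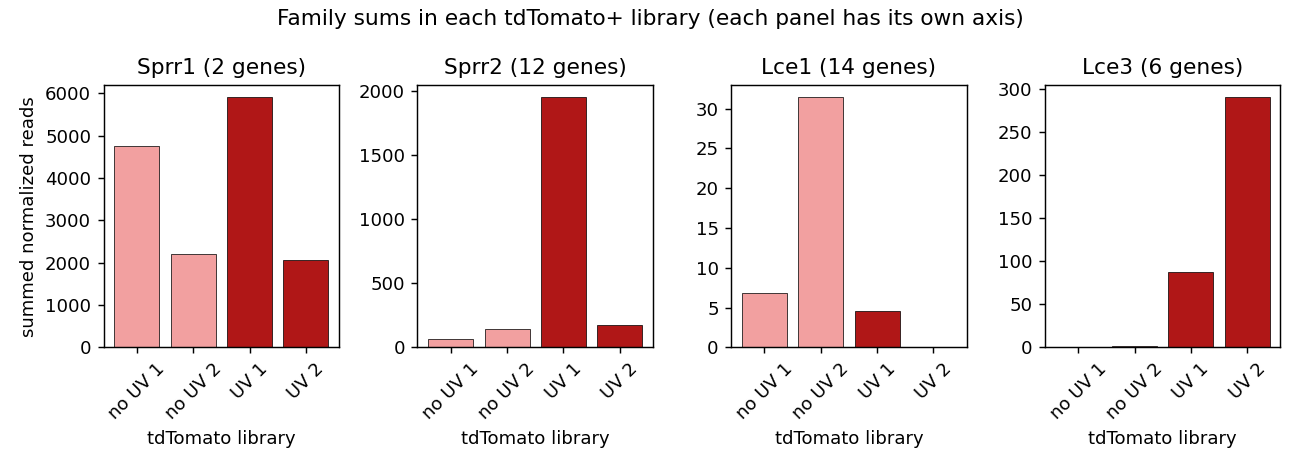
Summed normalized reads of the Sprr1 (2 genes), Sprr2 (12), Lce1 (14) and Lce3 (6) families, 1 bar for each tdTomato+ library, with a separate y axis from 0 in each panel. The Sprr2 bar of mouse 3 (UV 1) reaches 1954 and the Lce3 bar of mouse 4 (UV 2) 290, while Lce1 sums stay at or below 31.4.

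The LCE genes, which are switched on last in differentiation, were almost silent, apart from 2 Lce3 genes after UV. Of 21 Lce genes 10 were tested. Lce3c (chr3:92944486-92945733) had 0 in both no UV tdTomato libraries, 6.41 in mouse 3 and 289 in mouse 4. Both UV mice were above the no UV mice. Summed reads were at least 84.4-fold higher when 3 reads are taken as the floor over the no UV group. Mouse 4 held 312 of these 319 reads and mouse 3 held 7. The Lce3c difference of 5.54 ± 1.49 was not called (limma, adjusted p = 0.167). Lce3d (chr3:92957390-92958505), named after its values were seen, had 0 in mice 1, 2 and 4 and 77.9 in mouse 3, with a difference of 3.15 ± 1.69 (limma, adjusted p = 0.487). The 2 neighbouring genes were thus each high in a different UV mouse. Summed over 6 genes, Lce3 had 0 and 1.43 normalized reads without UV and 87.0 and 290 after it. The 14 Lce1 genes summed to 6.85 and 31.4 without UV and 4.58 and 0 after it.

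Of the fused-type S100 genes, and of all 37 genes tested (2.7%), Crnn was the 1 called with UV in tdTomato+ cells, beside 0.559% of the 18070 genes of the whole test. Crnn encodes cornulin, a late differentiation protein of stratified epithelia, at chr3:93144787-93149819. It had 0 normalized reads in both no UV libraries and 26.6 and 22.3 in the UV libraries, while all 4 EGFP libraries were at 0. The 53 UV reads against 0 made it at least 14.03-fold higher, and limma gave a log2 difference of 4.66 ± 0.72 (adjusted p = 0.0379). When tested on simulated data, this fit of all libraries made 122 calls, of which 42 were false. Of the false calls 39 were among genes with an EGFP mean under 5, where Crnn lies, and all 39 calls made among such genes were false. However, changes were planted only in genes more abundant in tdTomato+ cells than Crnn (mean 12.2 normalized reads). At the level of Crnn a call could thus only be false in this simulation. The call was lost in a fit of the 4 tdTomato libraries alone (adjusted p = 0.214) and with edgeR's quasi-likelihood test on reads (adjusted p = 0.358). Leaving out any EGFP library or either UV tdTomato library also ended the call for Crnn. The call held when the no UV tdTomato library of mouse 1 or mouse 2 was left out. Each such fit leaves a group of 1 library, so its p-values are not given. Over the 19 alternatives Crnn was called in 6.

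Tchh encodes trichohyalin, a protein of the inner root sheath of the hair follicle, at chr3:93442330-93449077. It had 246 and 244 normalized reads without UV and 53.1 and 19.5 after it in the tdTomato libraries. Both UV mice lay well below the no UV mice, yet the difference of -2.89 ± 1.09 was not called (limma, adjusted p = 0.303). Beside this, the 4 inner root sheath keratins used as markers summed to 373 to 524 without UV and 159 to 246 after it. Krt71, Krt27 and Krt28 had lower values in both UV mice, whereas Krt25 had 16.6 and 0 without UV and 23.8 and 79.7 after it, and Krt73, of the longer list, 0 and 4.28 against 18.3 and 32.5. The part of such cells in the Tchh values was not tested. Hrnr (hornerin), named after its values were seen, had 13.7 and 4.28 without UV and 0 in both UV libraries, with a difference of -3.14 ± 1.00 (limma, adjusted p = 0.229). Flg2, Rptn and Tchhl1 had at most 14.3 normalized reads in any library.

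None of the 3 enzyme genes was called with UV in tdTomato+ cells. Tgm1, the main transglutaminase of the epidermis (chr14:55700009-55713926), had 72.4 and 68.5 normalized reads without UV and 187 and 143 after it in the tdTomato libraries. Tgm3, a transglutaminase of late differentiation and the hair follicle (chr2:130012349-130050399), had 22.5 and 15.7 without UV and 0.916 and 0.927 after it. The UV and no UV libraries did not overlap for either gene, with the UV values of Tgm1 above and those of Tgm3 below, at 1.20 ± 1.10 (adjusted p = 0.668) and -3.37 ± 0.85 (adjusted p = 0.142) by limma. Casp14, a protease of filaggrin breakdown (chr10:78711991-78718294), had 558 and 444 without UV and 178 and 142 after it. Both UV mice were low, and the difference of -1.64 ± 0.99 was not called (limma, adjusted p = 0.540). Cdsn encodes corneodesmosin, which glues cornified cells together (chr17:35552128-35557180), and had 127, 173, 215 and 84.4, with overlapping groups (-0.13 ± 1.54; limma, adjusted p = 0.995).

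In the UV comparison of tdTomato+ cells, 1 of the 37 genes was called higher (Crnn) and 0 lower. Of all 18070 genes 0.559% were called, 0.349% higher and 0.21% lower. Of the 37, 14 had a difference above 0 and 22 below, with a median of -0.13 beside -0.09 for all genes. In 6 of 37 (16.2%) both UV libraries were above both no UV libraries without overlap, beside 21.6% of all genes, and in 8 (21.6%) they were below, beside 24.5%. The 6 were Crnn, Lce3c, Lce3f, Sprr2a3, Sprr2h and Tgm1, and the 8 were Casp14, Hrnr, Lce1m, Lce6a, Lor, Scel, Tchh and Tgm3. Lce3f, Lce1m and Lce6a had only 4, 3 and 11 reads over the tdTomato libraries. Crnn, Lce3c, Lce3f, Lce1m and Tgm3 passed the filter only through the group where they were higher, which partly sets their lack of overlap. By role, 7 SPRR genes were above 0 and 4 below, all 3 scaffold genes were below, and 4 of 5 fused S100 genes were below. Of 28 genes with at least 10 tdTomato reads, 14 had their highest value in mouse 3, 1 in mouse 4, 5 in mouse 1 and 8 in mouse 2. The same split over all genes is not given here, so these counts have no background beside them.

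**Figure D4:**
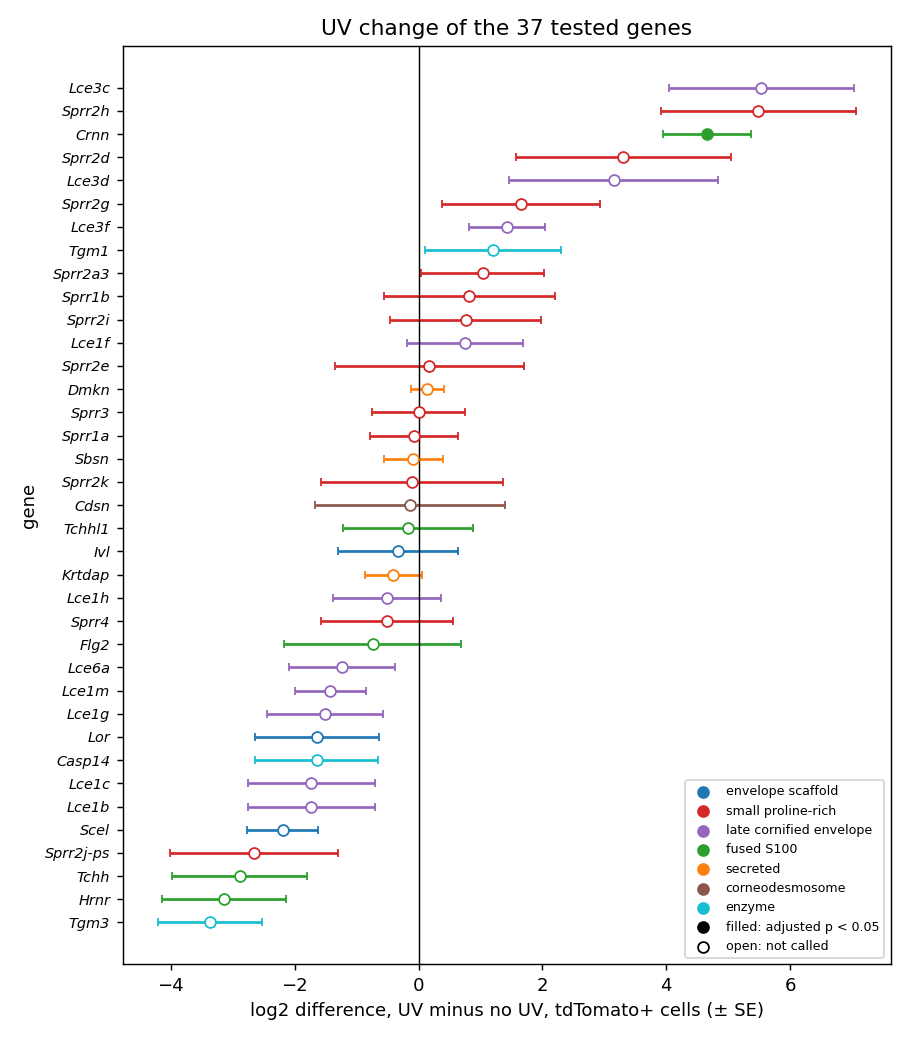
Log2 difference between UV and no UV tdTomato+ cells with its SE for each of the 37 tested genes, sorted by size and coloured by role; a filled point has an adjusted p under 0.05. Crnn at 4.66 is the 1 filled point, with Lce3c (5.54) and Sprr2h (5.49) above it but open and with wider errors.

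Among other genes of epidermal differentiation, 2 keratins were called lower and 1 higher with UV in tdTomato+ cells. Of 12 epidermal keratins, 2 fell: Krt10, with a log2 difference of -4.95 ± 0.37 (limma, adjusted p = 0.0101), and Krt1, with -7.98 ± 0.80 (limma, adjusted p = 0.0133). Krt1 and Krt10 are the keratin pair of the layers just above the basal layer, and Krt10 went from 12359 and 18394 normalized reads to 674 and 350. Krt6a, a keratin of injured epidermis, rose by 3.79 ± 0.52 (limma, adjusted p = 0.0292), from 1488 and 3043 to 39195 and 22214. Krt16 was higher in both UV mice (1833 and 1935 against 14171 and 5974) but was not called. The groups overlapped for Krt17 (51520 and 48707 without UV, 58079 and 44976 after it) and Krt6b (109 and 58.5, then 3355 and 67.7). The list's median was -0.67. In the same libraries Krtdap had at least 16988 normalized reads and Dmkn at least 40156. With the 4 tdTomato libraries fitted alone, limma called 0 of the 18070 genes.

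Of 17 tested processing proteases, inhibitors and deiminases, 2 rose and 0 fell, with a median of -0.14. Both were lysosomal cathepsins: Ctsl by 1.67 ± 0.16 (limma, adjusted p = 0.0101) and Ctsd by 1.67 ± 0.22 (limma, adjusted p = 0.0280). Klk14, a kallikrein of desquamation, had the next smallest p at -3.82 ± 0.95 (limma, adjusted p = 0.140). Of 11 envelope partners none was called (median -0.57), with Cstb, Krt77 and Ppl at -0.57, -5.38 and -1.84. Of 19 barrier lipid genes none was called (median -0.24), with Elovl1 at 0.82 and Ugcg at 2.52. Of 22 regulators of differentiation none was called (median -0.38), with Nfe2l2 at 0.63, Tfap2a at -1.29 and Maf at -1.49.

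Of 10 targets of the oxidative stress factor NRF2, 1 fell and 0 rose (median 0.77). The fall was that of Gstm1, a glutathione transferase, with a difference of -1.62 ± 0.20 (limma, adjusted p = 0.0211). Hmox1 (1.74) and Gclc (0.62) were not called. Of 14 S100 genes of the complex none was called (median -0.05). S100a1 was nearest at 0.88 ± 0.16 (limma, adjusted p = 0.0614), with S100a8 at -2.02 and S100a13 at -0.41. Of 16 tested inner root sheath and hair shaft genes none was called (median -0.54), with Krt73 at 3.47, Krt25 at 3.41 and Krt28 at -2.16.

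In EGFP+ cells none of the 37 genes was called with UV, beside 0.0166% of all genes (limma). At an unadjusted p under 0.05 there were 2 of the 37 genes, Krtdap and Dmkn, beside 1875 of all 18070. Krtdap was lower in both UV mice (25.2 and 37.7 normalized reads) than in the no UV mice (172 and 64.7), at -1.74 ± 0.46 (limma, adjusted p = 0.277). Of the 37, Krtdap was the 1 gene called by edgeR's quasi-likelihood test (adjusted p = 0.0305) and by DESeq2 (adjusted p = 0.00491). These called 120 and 355 of all 18070 genes. Dmkn was higher in both UV mice, at 0.77 ± 0.27 (limma, adjusted p = 0.397). Without overlap, 1 of 37 genes (2.7%) was higher after UV, beside 12.7% of all genes, and 3 (8.11%) were lower, beside 20.7%.

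Between the sorted populations, 18 of the 37 tested envelope genes were called lower in EGFP+ cells and 0 higher, beside 28.9% of all genes called (19.2% lower, 9.66% higher), and the median was -2.19 against -0.33 for all genes. All 3 secreted, all 3 scaffold and all 3 enzyme genes, Cdsn, 6 of 12 SPRR and 2 of 5 fused S100 genes were called, and 0 of 10 LCE genes. Of the called genes, Crnn, Sprr2a3, Sprr2g, Sprr2j-ps, Ivl, Casp14, Lor and Tgm3 passed the filter only through tdTomato+ cells. The direction of their difference was thus partly set by the filter, which also acts on the shares of all genes. Of the 53 genes, 24 had an adjusted p in the authors' deposited table, 17 of them lower and 0 higher in EGFP+ cells at 0.05. The share of all genes called in the authors' test is not given here, so these counts have no background beside them.

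Scel had 2.50, 3.80, 3.36 and 5.39 normalized reads in the EGFP libraries of mice 1 to 4. By summed reads it was 908 times as abundant in tdTomato+ cells (counting interval 559 to 1589), within the wider intervals of Ivl (212 to 6353) and Casp14 (191 to 5703), each with 2 EGFP reads in all. Its log2 difference, EGFP minus tdTomato, was -9.21 ± 0.41 (limma, adjusted p = 2.22e-06). Sprr1a had 34.9, 9.51, 6.71 and 14.01 in the EGFP libraries, Sprr1b 2.50, 0, 1.68 and 1.08, Sprr2h 0, 1.90, 1.68 and 1.08, Tchh 0.832, 3.80, 0 and 0, and Tgm1 0.832, 3.80, 2.52 and 0. A single EGFP library held all reads of Ivl (1.68, mouse 3), Casp14 (1.90, mouse 2) and Lor (0.951, mouse 2), Tgm3 had 0.832, 0, 0.839 and 0, and Lce3c, Sprr2a3, Sprr2g and Sprr2j-ps were at 0 in all 4. Every one of these EGFP values lay below the tdTomato value of the same mouse, except those at 0 in both. Dmkn differed by -8.94 ± 0.19, Krtdap by -8.79 ± 0.32 and Sbsn by -6.47 ± 0.34. Ivl differed by -8.11, Casp14 by -7.76, Sprr1a by -7.65, Sprr1b by -7.40, Sprr2a3 by -5.86, Tchh by -5.72 and Tgm1 by -5.52, and these 11 genes and Lor (-3.43) were called under each of the alternatives. Cdsn (-5.01), Sprr2h (-4.93), Crnn (-2.33), Tgm3 (-2.19), Sprr2j-ps (-3.01) and Sprr2g (-2.79) each lost the call under at least 1 alternative, with adjusted p up to 0.0967, 0.0899, 1.00, 0.245, 0.177 and 0.186. In no library of either population was Sprr3 above 3.33 normalized reads. It was the 1 gene called higher in EGFP+ cells in any alternative, without the EGFP library of mouse 2 (limma, adjusted p = 0.0449), on 4 reads of 1 library.

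The EGFP level as a percent of the tdTomato level of the same mouse was 0.130% to 0.258% for Dmkn. The basal keratins Krt14 and Krt5, markers of keratinocytes, stood at 0.166% to 0.269% and 0.154% to 0.241%. The suprabasal keratins varied far more between mice. Krt10 stood at 1.91%, 0.910%, 25.5% and 51.7% in mice 1 to 4, and Krt1 at 0.241%, 0.0718%, 7.76% and 19.4%. Krtdap ranged from 0.0852% to 0.614%, Scel from 0.0449% to 0.497%, Sprr1a from 0.162% to 0.811% and Sbsn from 0.600% to 1.42%. Dmkn thus overlapped the basal keratins, while Sbsn was above the basal keratins and below Krt10 in each mouse. The part of keratinocyte RNA in the EGFP libraries was not tested. Of the 53 genes 26 had 0 reads in every EGFP library, 17 of these with reads in tdTomato+ cells, and 6 had more than 10 EGFP reads in all. Cdsn was uneven, at 25.8, 0, 5.87 and 1.08 normalized reads in the EGFP libraries, or 0% to 20.3% of the tdTomato level.

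**Figure D5:**
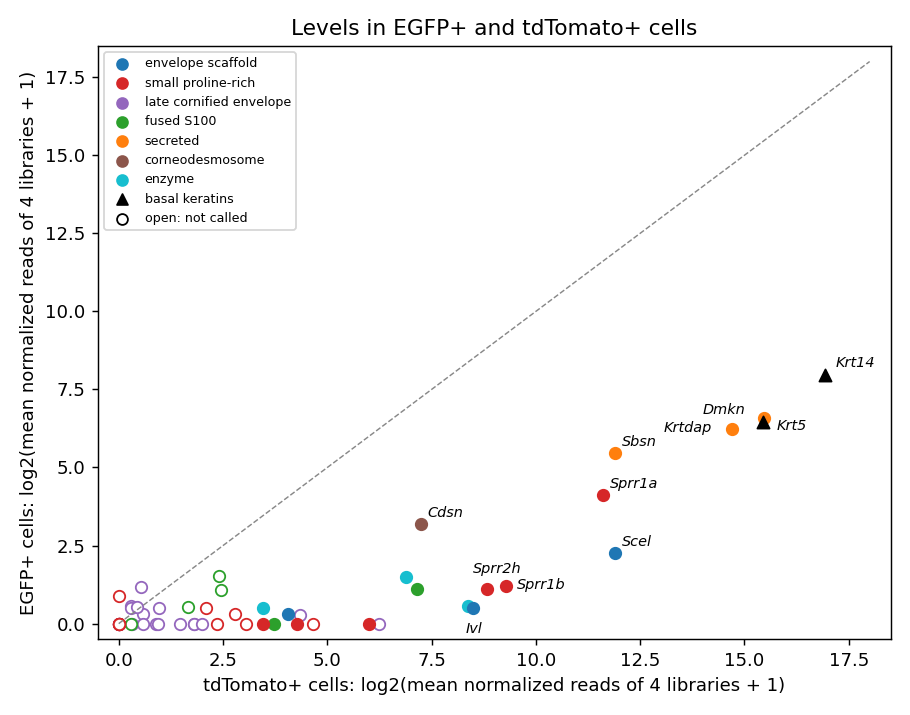
Mean level of each of the 53 genes in the 4 tdTomato+ libraries (x axis) and in the 4 EGFP+ libraries (y axis), both on the log2(mean normalized reads + 1) scale, coloured by role, with filled points for genes called between the populations; triangles are the basal keratins Krt5 and Krt14 and the dashed line marks equal levels. All 18 called genes lie below the line, and Dmkn lies beside Krt5.

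A difference in UV change between the populations was called for 0 of the 37 genes by limma, beside 0.00553% of all genes. The smallest p-values were those of Crnn, at -4.66 ± 1.01 (EGFP minus tdTomato; adjusted p = 0.243), and Scel, at 2.56 ± 0.81 (adjusted p = 0.383). At an unadjusted p under 0.05 there were 4 of the 37 genes, beside 1814 of all 18070. Both edgeR and DESeq2 called 0 of the 37, beside 75 and 286 of all 18070. Genes outside the 6 with more than 10 EGFP reads had at most 8 reads over the 4 EGFP libraries, which leaves little room to measure a fall.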

How the data were processed

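Polyadenylated RNA of sorted skin cells was sequenced in 8 libraries (TruSeq RNA v2, which keeps no strand), per the labels' protocols. The submitters' processing notes name FastQC, TopHat2 2.0.12, Cufflinks 2.2.1, DESeq2 1.14.1 and the mm10 build. The authors deposited normalized read counts (signal), that is, counts divided by size factors. All 195368 values became whole reads within 0.01 once multiplied by the library's size factor (100%), and depth was 11186363 to 16711981 reads. The deposited table also held the authors' log2 fold changes, test statistics (score), p-values and adjusted p-values, copied and named as theirs.

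Tests used limma 3.58.1 in R 4.3.3 on log2(value + 1), so the fold changes of low genes are understated. A single fit had 1 mean for each of the 4 groups and a mean-variance trend, over the 18070 genes whose mean reached 1 in any group. Benjamini-Hochberg adjustment ran over all of these genes, with a threshold of 0.05. edgeR 4.0.16 and DESeq2 1.42.0 on the recovered reads were alternatives, beside other pseudocounts, filters and scalings, replicate blocks and leaving out each library. Self-tests ran on simulated counts. Counting intervals (95%) and the floor of 3 reads over a group cover counting error only. EGFP and tdTomato libraries of 1 mouse are paired by the labels, and their deviations from the group means correlated at 0.0873 (mice 1 and 2) and 0.0562 (mice 3 and 4). Across the UV arms a shared replicate number marks no shared mouse.

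Values in every library are given for genes with a group mean of at least 100, for called genes and for Lor and Sprr1b, and of each other list the called genes and up to 3 with the smallest p (1 such gene is not reported here). The genes and lists were chosen with earlier results of these data known. All 53 genes matched 1 GENCODE vM21 gene.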

Additional observations from a re-analysis of the deposited data

How the results depend on the processing

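With 2 mice in each arm, counts of called envelope genes moved easily. The UV count in tdTomato+ cells (1) became 0 with pseudocount 0.1 or a stricter filter (at least 5 in at least 2 libraries). It was also 0 with quantile normalization, in a fit of the compared libraries alone and with the replicate number as a block. It was 2 with edgeR and 2 with DESeq2 (Scel and Sprr2h in both). Over all genes the settings that gave 0 called 29, 100, 90, 0 and 70, in the order named. Leaving out 1 library also moved the count, but such a fit leaves a group of 1 library, so its counts are not given. Without the tdTomato library of mouse 1, the no UV values of Lce1b, Lce1c, Lce1g and Lce1m rest on 7, 7, 5 and 1 reads of mouse 2. All other libraries in that fit held 0 reads of these genes. Centring on the keratins, whose mean log2 level was 14.8 and 15.3 without UV and 12.5 and 11.9 after it, gave 21, all higher, and moved the median of all genes to 2.74, since Krt1 and Krt10, which fell, are among the 5 keratins. Among genes called under this shift, signs that turned included those of Cdsn (2.69), Ivl (2.50), Krtdap (2.42), Sbsn (2.74), Sprr1a (2.75) and Tchhl1 (2.66). Those of Cstb (2.26), Gstm1 (1.21), Maf (1.34), S100a13 (2.41) and Tfap2a (1.54) turned too. Scel (0.63), Casp14 (1.19) and Lor (1.19) also turned but were not called. Each of these values is to be read against 2.74. Over all genes the UV count in tdTomato+ cells ran from 0 to 13384, with 240 by edgeR and 617 by DESeq2. In EGFP+ cells the UV count (0) was 1 with edgeR and 1 with DESeq2, beside 120 and 355 of all 18070 genes. The count between populations (18) stayed within 14 to 21, and the replicate block on mouse left it at 18. Over all genes the count between populations was 5217 in the main fit and 5221 with the mouse block. With every library kept, it ran from 4135 without the trend to 5689 with DESeq2. The difference in UV change (0) was 0 with the mouse block. It also moved when the tdTomato library of mouse 1 or mouse 2 was left out, which again leaves a group of 1 library. Other causes of these moves were not tested.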
